A study of Homo sapiens with 6 samples.

Results

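The genes described here are 46 genes of DNA replication and nucleotide supply, taken by name from a list of genes that act in S phase. They comprise 11 genes of origin licensing, 6 of helicase activation, 8 of the DNA polymerases and primase, 5 of the sliding clamp and its loader, 2 of Okazaki fragment maturation, 3 of single-strand binding, 4 of deoxynucleotide supply, 3 of chromatin replication and 4 E2F transcription factors. All 46 were found, 1 row each, among the 40295 Ensembl gene rows of the deposited table, and all 46 were among the 16580 genes that had enough counts to be tested. The cells are HDQ-P1, a human cancer line in long-established use that carries homozygous nonsense mutations, and the study used it to measure readthrough of premature termination codons. RNA-seq was carried out on 6 HDQ-P1 libraries. The treated group is 3 libraries from cells exposed to 1 µM Y-320, an immunomodulatory small molecule, for 48 h, and the control group is 3 libraries from untreated cells of the same line, for which no solvent control is named. A single line, dose and time were sequenced. The labels number the replicates of each group from 1 to 3 without saying whether they came from separate cultures, so the p-values measure the spread between these libraries, which may be technical.

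The libraries held 21045401 to 22740535 estimated counts, and 3 counts corresponded to 0.132 to 0.143 CPM (counts divided by library size, here scaled by edgeR's TMM factors and given per 1000000 counts). The mean of every member in untreated cells lay far above this, at 7.42 CPM or more. Over the members, the SD between the 3 libraries of a group had a median of 3.90% of the mean in untreated and 2.91% in treated cells. All 5 epithelial markers examined were present, and their summed level was 7321, 7633 and 7474 CPM in the untreated and 4538, 4557 and 4570.0 CPM in the treated libraries, with 4 of the 5 (CDH1, KRT8, KRT18 and KRT19) lower and EPCAM higher after treatment. Of 6 fibroblast markers, COL1A1, COL1A2 and LUM were lower after treatment, and the summed level of all 6 was 239.8 to 273 CPM in untreated and 125 to 145 CPM in treated libraries. Leukocyte markers summed to 1.34 to 2.14 CPM over all libraries. Endothelial markers summed to 17.5 to 18.9 CPM in untreated and 13.8 to 18.0 CPM in treated libraries, with PECAM1 higher and CDH5 lower after treatment. The part of these marker differences in the results below was not tested. In these bulk libraries, fewer cells in S phase and less RNA per cell cannot be told apart.

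A cell copies its genome once per division. In G1, the origin recognition complex, CDC6 and CDT1 load the MCM helicase onto origins, a step called licensing, and geminin, encoded by GMNN, holds CDT1 in check once S phase begins. The loaded helicase is then activated by CDC45 and the GINS complex, the polymerases copy both strands with the help of the PCNA clamp and its RFC loader, and ribonucleotide reductase, thymidylate synthase and thymidine kinase supply deoxynucleotides. Many of these genes are transcribed under E2F factors and peak together around the start of S phase.

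After 48 h of Y-320, the replication genes did not move as 1 block. In the quasi-likelihood fit of edgeR, with p-values adjusted by the Benjamini-Hochberg method over all genes tested and a threshold of 0.05, 15 of the 46 were higher, 9 were lower and 22 did not pass. Over all 16580 genes tested, 51.5% passed this threshold, 26.2% higher and 25.4% lower, so the 52.2% of members called was close to the background. Changes of members were small. Their median log2 fold change was 0.05, beside 0.00 over all genes, and the median size of their change regardless of sign was 0.12, beside 0.21 over all genes. CDT1 alone, 1 of the 46, changed by at least 0.5 on the log2 scale, beside 15.7% of all genes tested that were called with a change of that size, 8.44% higher and 7.28% lower. The genes tested include genes at lower levels than any member, and these comparisons of size were not matched for level. The treated libraries lay all above the untreated ones for 16 members and all below them for 12, beside 29.8% and 29.4% of all genes tested. The 46 members summed to 4004, 3963 and 3905 CPM in untreated replicates 1 to 3 and to 4078, 3963 and 3963 CPM in treated replicates 1 to 3, and these sums overlapped between the groups. The split between directions depended on scaling. With upper-quartile scaling, which shifted the median of all genes to -0.03, 12 members were called higher and 14 lower, beside 23.6% and 28.6% of all genes tested. DESeq2 called 11 members higher and 8 lower, beside 20.5% and 19.8% of all genes, and limma-voom 15 and 10, beside 26.2% and 25.4%. At an adjusted p of 0.01 by edgeR, 11 members were higher and 7 lower, beside 20.3% and 19.1% of all genes.

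**Figure D1:**
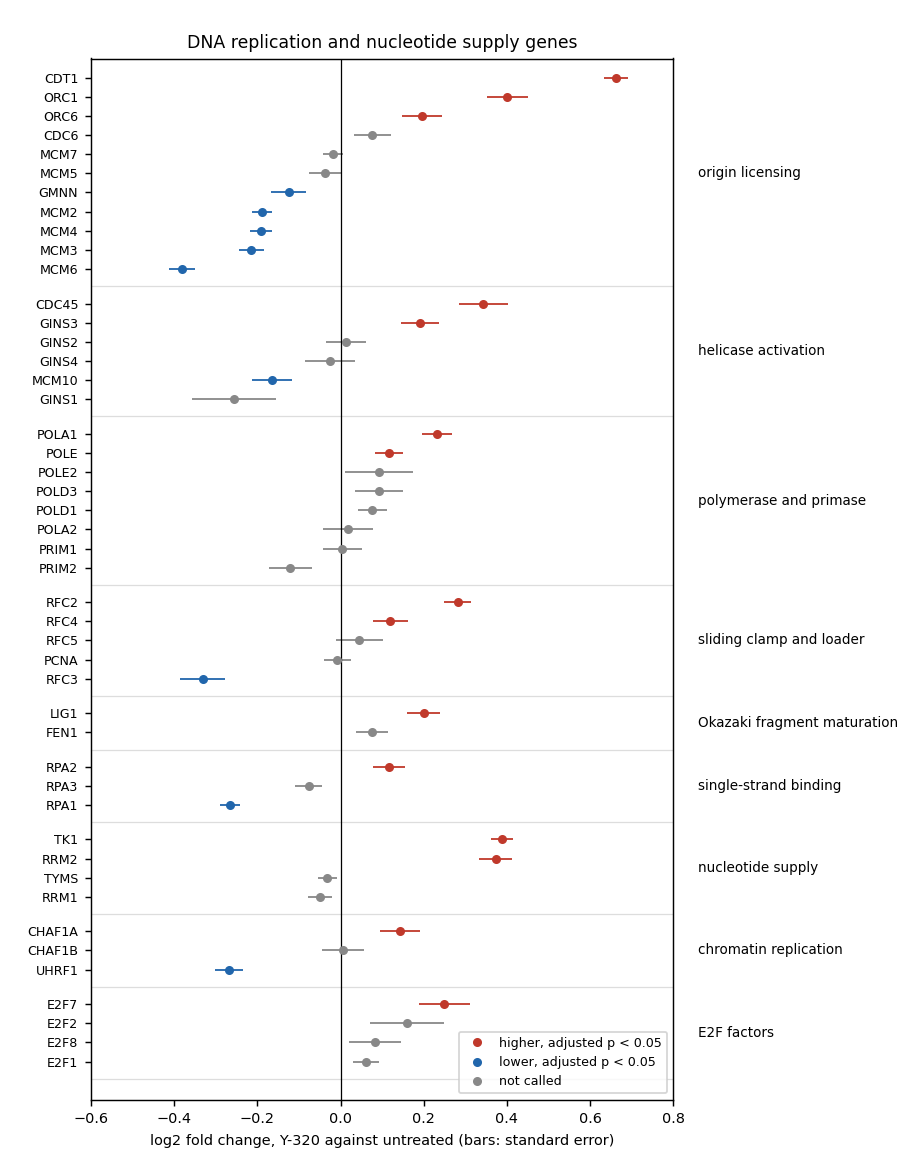
Log2 fold change of each of the 46 replication genes in cells treated with Y-320 against untreated cells, with the standard error from edgeR as bars, grouped by role and coloured by call at an adjusted p of 0.05. CDT1 stands at 0.66, the other members lie between -0.38 (MCM6) and 0.40 (ORC1), and most roles hold genes on both sides of 0.

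**Figure D2:**
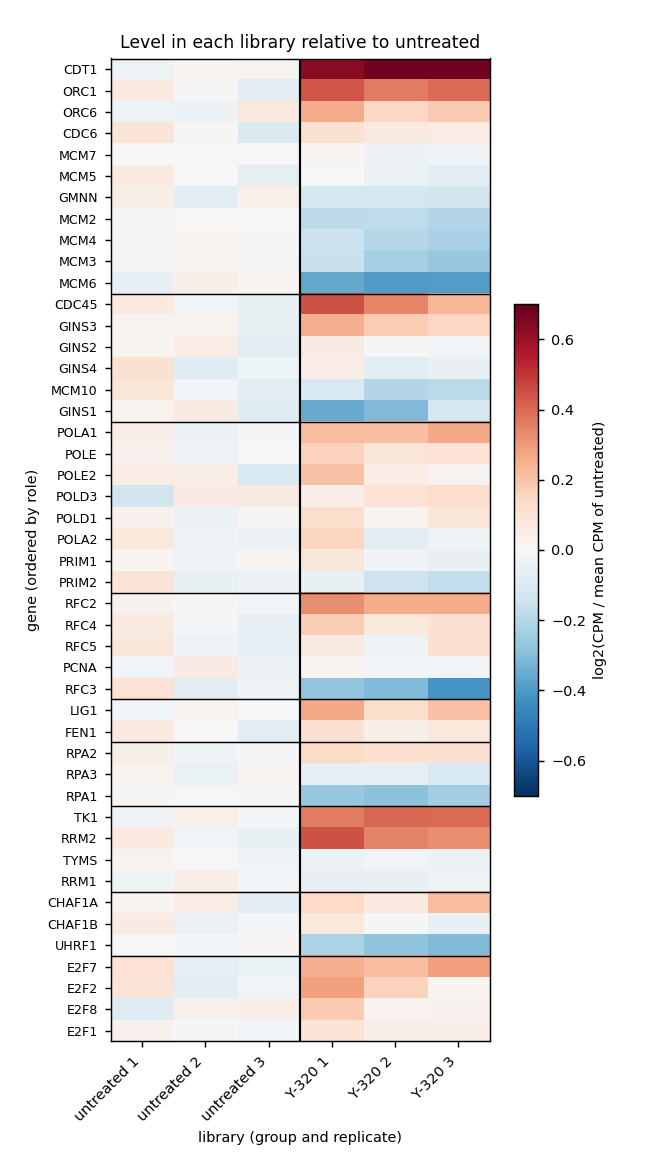
Level of each replication gene in each of the 6 libraries, as the log2 ratio of its CPM to the mean CPM of the 3 untreated libraries, ordered by role as in the plot of fold changes. CDT1, ORC1, RRM2 and TK1 are high in all 3 treated libraries, and MCM6, RFC3, UHRF1 and RPA1 are low in all 3.

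Among the 11 licensing genes, 3 were higher (CDT1, ORC1 and ORC6), 5 were lower (GMNN, MCM2, MCM3, MCM4 and MCM6) and 3 did not pass the test (CDC6, MCM5 and MCM7), with a median log2 fold change of -0.04. Among the other 35 members, 12 were higher, 4 were lower and 19 did not pass, with a median of 0.08. The genes with the highest and the lowest change of all 46 members, CDT1 and MCM6, were thus both licensing genes. By edgeR, 26.2% of all genes tested were called higher and 25.4% lower. The difference between the licensing genes and the other members was not tested.

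CDT1, which brings the MCM helicase to origins, was measured at 76.1, 78.8 and 78.8 CPM in untreated replicates 1 to 3 and at 121, 124 and 124 CPM in treated replicates 1 to 3. The lowest treated library lay 42.1 CPM above the highest untreated one, while the libraries of a group spanned 2.68 CPM in untreated and 3.56 CPM in treated cells. CDT1 was 1.58-fold higher after treatment (log2 fold change 0.66 ± 0.029 SE, edgeR adjusted p = 3.67e-08). Its log2 fold change stood at the 93.8th percentile of all genes tested, and it remained between 0.64 and 0.68 when any 1 library was left out. The gene lies on the plus strand at chr16:88803789-88809258 in GRCh38.

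ORC1, the largest subunit of the origin recognition complex, rose from 24.95, 23.97 and 22.6 CPM in the untreated to 32.3, 30.7 and 31.3 CPM in the treated libraries (log2 fold change 0.40 ± 0.049 SE, edgeR adjusted p = 6.4e-05). ORC6, the smallest subunit of the same complex, was at 30.5, 30.4 and 32.9 CPM in the untreated and 37.4, 34.6 and 35.5 CPM in the treated libraries (log2 fold change 0.20 ± 0.048 SE, edgeR adjusted p = 0.00623), with a gap of 1.65 CPM between the groups, smaller than the range within either. The ORC6 call was lost when replicate 1 of both groups was left out together (edgeR adjusted p = 0.0572). CDC6, the ATPase that works with CDT1, was at 104, 98.7 and 91.4 CPM in untreated and 106, 103 and 102 CPM in treated libraries, and the groups overlapped (log2 fold change 0.08 ± 0.045 SE, edgeR adjusted p = 0.181). Without untreated replicate 1, which was the highest CDC6 library of that group, the adjusted p for CDC6 was 0.0309.

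GMNN, which encodes the inhibitor of CDT1, was at 40.8, 37.6 and 40.6 CPM in the untreated and 36.5, 36.5 and 36.3 CPM in the treated libraries (log2 fold change -0.13 ± 0.042 SE, edgeR adjusted p = 0.0292). The treated libraries lay below the untreated ones, with a gap of 1.16 CPM to untreated replicate 2, the nearest of them. The GMNN call was lost with DESeq2 (adjusted p = 0.167), with library size scaling (edgeR adjusted p = 0.0515) and when any 1 library other than untreated replicate 2 was left out (edgeR adjusted p = 0.0591 to 0.0933). The ratio of CDT1 to GMNN counts was 1.87, 2.09 and 1.94 in the untreated and 3.32, 3.41 and 3.42 in the treated libraries, on average 1.72 times as high after treatment. This ratio, like the others given below, was chosen after its values were seen, and no test was made of it. The ratios are not corrected for length, so they compare the libraries for a pair of genes and not the levels of its members.

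The 6 subunits of the MCM2-7 helicase, which CDT1 loads, did not follow CDT1. None was called higher and 4 were called lower by edgeR, DESeq2 and limma-voom alike and under each scaling tried. Over all genes tested, edgeR called 26.2% higher and 25.4% lower. Of the 6 subunits, none was higher at an unadjusted p of 0.05 either (0 of 6), where no share over all genes was counted. Their median log2 fold change was -0.19. MCM6 moved most, from 124, 132 and 130.1 CPM in the untreated to 100.4, 97.7 and 98.4 CPM in the treated libraries (log2 fold change -0.38 ± 0.032 SE, edgeR adjusted p = 3.72e-06). Its treated libraries lay well below the lowest untreated one. MCM3 was at 233, 237 and 233 CPM in untreated and 211, 200.01 and 195 CPM in treated libraries (log2 fold change -0.21 ± 0.031 SE, edgeR adjusted p = 0.000183). MCM2 and MCM4 fell by similar amounts, with log2 fold changes of -0.19 and -0.19 and groups that did not overlap.

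The other two subunits gave no call. MCM5 was at 114, 109 and 104 CPM in untreated and 109, 105 and 103 CPM in treated libraries (log2 fold change -0.04 ± 0.038 SE, edgeR adjusted p = 0.439), and MCM7 at 335, 336 and 334 CPM and 338, 326 and 329 CPM (log2 fold change -0.02 ± 0.023 SE, edgeR adjusted p = 0.538). The groups overlapped for both genes, with treated replicate 1 of MCM7 the highest of all 6 libraries. The ratio of MCM7 to MCM6 counts was 2.70, 2.54 and 2.57 in untreated and 3.36, 3.33 and 3.34 in treated libraries, so the subunits of a complex that holds 1 copy of each did not keep the same transcript proportions. Summed over the 6 subunits, the level was 1219, 1229.8 and 1213 CPM in the untreated and 1127, 1091 and 1082 CPM in the treated libraries, a treated mean 0.901 times that of untreated cells.

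**Figure D3:**
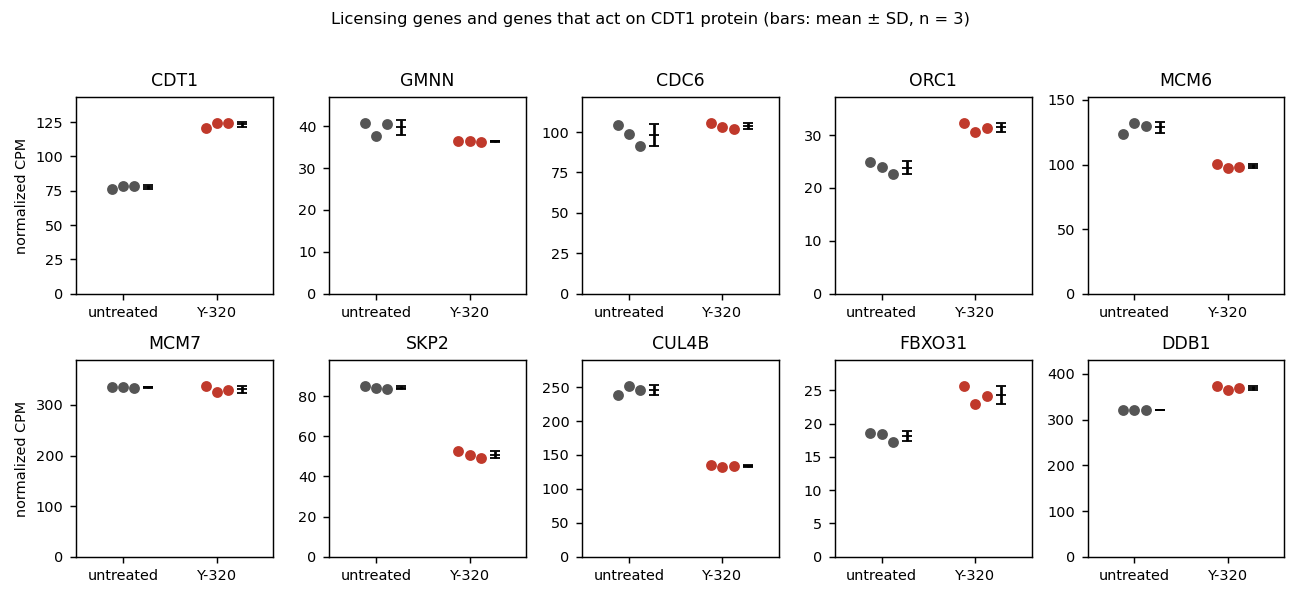
Normalized CPM in each library for 6 licensing genes (CDT1, GMNN, CDC6, ORC1, MCM6 and MCM7) and for 4 of the 9 genes of CDT1 control by proteolysis (SKP2, picked out after its values were seen, CUL4B, FBXO31 and DDB1), in untreated (grey) and Y-320-treated (red) cells, with the mean ± SD of 3 libraries and each vertical axis starting at 0. CDT1, ORC1, FBXO31 and DDB1 are higher and MCM6, SKP2 and CUL4B lower in every treated library than in any untreated one, while the CDC6 and MCM7 points overlap between the groups.

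The sequences before the start sites of 4 members that moved in opposite directions are shown because the pathway is known for shared E2F control. Of the 46 members, 39 had an entry in the RefSeq promoter table for GRCh38.p14, and RPA2, RPA3, GINS4, POLD3, MCM5, MCM4 and E2F8 had none. The 250 bases before each start site were searched on both strands for the 8-letter E2F sites TTTGGCGC, TTTCCCGC, TTTGCCGC and TTTCGCGC, for the CCAAT box and for the CHR element TTTGAA. The 150 bases before the start site, 5′ to 3′ on the gene's own strand, are given for the 2 members with the highest and the 2 with the lowest log2 fold change among called members whose window holds no annotated exon, with matches in capitals. The window of CDT1 lies at chr16:88803639-88803788 on the plus strand, ORC1 at chr1:52404424-52404573 on the minus strand, MCM6 at chr2:135876444-135876593 on the minus strand and MCM10 at chr10:13161408-13161557 on the plus strand.
CDT1: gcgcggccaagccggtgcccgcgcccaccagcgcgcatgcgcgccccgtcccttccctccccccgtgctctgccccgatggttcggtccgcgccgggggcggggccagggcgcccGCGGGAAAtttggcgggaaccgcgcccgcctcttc
ORC1: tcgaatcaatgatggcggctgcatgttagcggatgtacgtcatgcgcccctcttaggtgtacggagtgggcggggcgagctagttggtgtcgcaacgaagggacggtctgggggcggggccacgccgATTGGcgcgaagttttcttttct
MCM6: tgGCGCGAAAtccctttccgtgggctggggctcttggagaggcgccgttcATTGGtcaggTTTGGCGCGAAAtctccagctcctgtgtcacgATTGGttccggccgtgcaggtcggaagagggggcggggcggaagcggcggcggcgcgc
MCM10: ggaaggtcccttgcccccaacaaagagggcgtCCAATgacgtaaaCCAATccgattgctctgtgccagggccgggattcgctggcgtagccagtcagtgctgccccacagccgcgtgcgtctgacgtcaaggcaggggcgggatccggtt
In CDT1 the capitals mark 1 E2F match, TTTCCCGC on the opposite strand, starting 35 bases before the start site. In ORC1 they mark 1 CCAAT box on the opposite strand. In MCM6 they mark E2F matches at 148, 90 and 86 bases before the start site and CCAAT boxes on the opposite strand at 100 and 58 bases. The MCM6 match TTTGGCGC at 90 bases shares letters with the match to TTTCGCGC on the opposite strand at 86 bases, so these are 1 stretch and not separate sites, and the match at 148 bases shares letters in the same way with a TTTGGCGC match that begins 152 bases before the start site, outside the printed window. In MCM10 the capitals mark CCAAT boxes at 118 and 105 bases.

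The E2F letters were found before the start of 15 of the 39 members with a promoter entry (38.5%), beside 2.79% of all 27305 RefSeq promoters of the same length. They stood before 4 of the 14 members that were higher, 4 of the 8 that were lower and 7 of the 17 that did not pass. The gene with the highest change, CDT1, and the gene with the lowest, MCM6, thus both carried them. The CCAAT box stood before 22 of 39 members (56.4%), beside 33.0% of all promoters, and the CHR element before 1 of 39 (2.56%), RRM1, beside 13.6%. A match describes letters in this window and not a bound factor. E2F sites with other letters than those searched were not counted, so a gene without a match may still hold such a site. The split of matches between the calls was not tested.

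**Figure D4:**
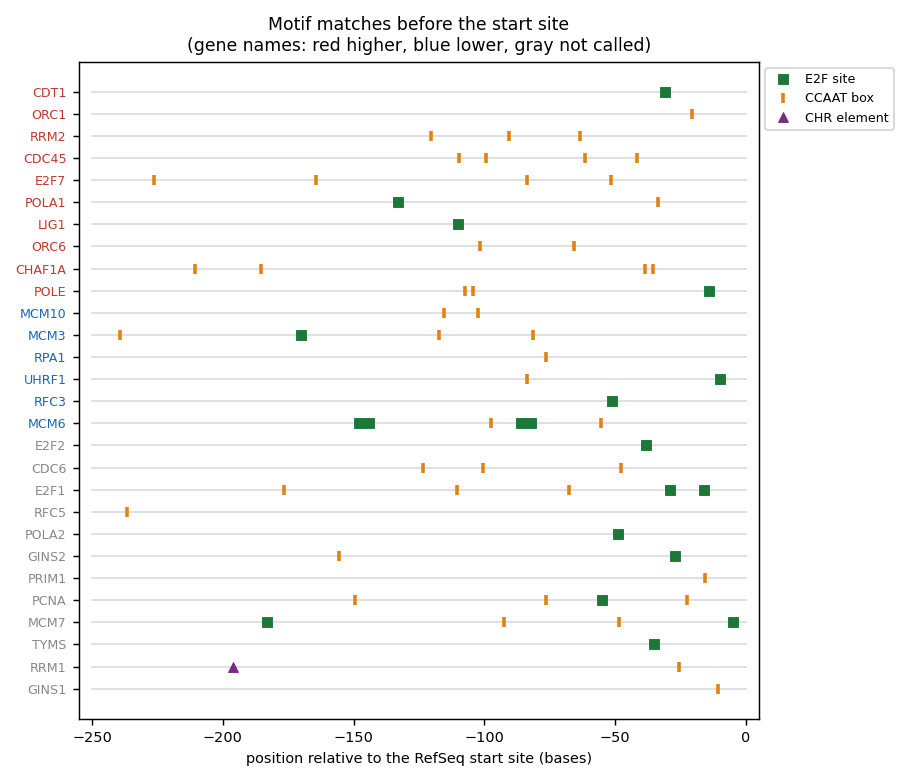
Position of each match to an E2F site (squares), a CCAAT box (bars) or the CHR element (triangle) in the 250 bases before the RefSeq start site of the 28 members that hold at least 1, in bases from the start site, ordered by call and log2 fold change. E2F squares stand in the rows of genes that were higher (CDT1, POLA1, LIG1 and POLE), lower (MCM3, UHRF1, RFC3 and MCM6) and not called alike.

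Of the 6 genes that turn the loaded MCM ring into an active helicase, 2 were higher, 1 was lower and 3 did not pass. By edgeR, 26.2% of all genes tested were called higher and 25.4% lower. CDC45, the helicase cofactor, rose from 29.5, 27.8 and 27.2 CPM in the untreated to 38.4, 35.7 and 33.1 CPM in the treated libraries (log2 fold change 0.34 ± 0.059 SE, edgeR adjusted p = 0.000689), with no overlap between the groups. The 4 GINS subunits, which form 1 complex, gave different calls. GINS3 was higher, at 28.2, 28.3 and 26.8 CPM in untreated and 32.98, 31.5 and 30.7 CPM in treated libraries (log2 fold change 0.19 ± 0.045 SE, edgeR adjusted p = 0.00502). GINS2, at 29.4, 30.1 and 27.5 CPM and 30.2, 28.8 and 28.6 CPM (log2 fold change 0.01 ± 0.048 SE, edgeR adjusted p = 0.854), and GINS4, at 27.7, 24.3 and 25.2 CPM and 26.6, 24.3 and 24.8 CPM (log2 fold change -0.03 ± 0.060 SE, edgeR adjusted p = 0.743), overlapped between the groups.

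GINS1 was at 7.54, 7.76 and 6.96 CPM in untreated and 5.81, 5.996 and 6.84 CPM in treated libraries, which did not overlap, and it just missed the threshold (log2 fold change -0.26 ± 0.10 SE, edgeR adjusted p = 0.0543). It passed with limma-voom (adjusted p = 0.0491), with upper-quartile scaling (edgeR adjusted p = 0.0347) and without treated replicate 3, its highest treated library (edgeR adjusted p = 0.0288). MCM10, which helps the helicase start to unwind, fell from 50.5, 46.9 and 45.3 CPM to 44.1, 41.3 and 41.7 CPM (log2 fold change -0.17 ± 0.048 SE, edgeR adjusted p = 0.0149). The MCM10 call was lost when untreated replicate 1 (edgeR adjusted p = 0.0521), treated replicate 2 (0.0597) or treated replicate 3 (0.0521) was left out.

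Of the 8 polymerase and primase genes, 2 were higher and 6 did not pass. None was called lower by edgeR or DESeq2, beside 25.4% and 19.8% of all genes tested. At an unadjusted p of 0.05, 1, PRIM2, was lower, and no share over all genes was counted there. POLA1, the catalytic subunit of polymerase alpha, which starts each new strand together with primase, rose from 49.01, 46.1 and 47.2 CPM in the untreated to 55.1, 54.9 and 57.1 CPM in the treated libraries (log2 fold change 0.23 ± 0.037 SE, edgeR adjusted p = 0.000404). Its groups were well separated. POLE, the catalytic subunit of the leading-strand polymerase epsilon, was at 73.5, 70.6 and 71.8 CPM in untreated and 80.5, 76.3 and 77.3 CPM in treated libraries (log2 fold change 0.12 ± 0.033 SE, edgeR adjusted p = 0.0134), a call that was lost with DESeq2 (adjusted p = 0.0681) and without untreated replicate 2 (edgeR adjusted p = 0.0532).

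The partners of these catalytic subunits gave no call. POLA2, the second subunit of polymerase alpha, was at 40.4, 37.5 and 37.3 CPM in untreated and 42.6, 36.4 and 37.6 CPM in treated libraries (log2 fold change 0.02 ± 0.061 SE, edgeR adjusted p = 0.833). PRIM1, the catalytic primase subunit, was at 29.8, 28.9 and 29.8 CPM and 31.2, 29.04 and 28.5 CPM (log2 fold change 0.00 ± 0.047 SE, edgeR adjusted p = 0.956). In both genes the treated libraries lay above, within and below the untreated range. PRIM2, the large primase subunit, was at 38.8, 35.1 and 35.4 CPM and 35.1, 32.96 and 32.3 CPM (log2 fold change -0.12 ± 0.052 SE, edgeR adjusted p = 0.0753). Treated replicate 1 of PRIM2 fell inside the untreated range, and the gene was called lower without that library (edgeR adjusted p = 0.0387) and with upper-quartile scaling (0.0323).

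POLD1 and POLD3, the catalytic and an accessory subunit of the lagging-strand polymerase delta, did not pass either. POLD1 was at 70.6, 67.2 and 69.6 CPM in untreated and 75.2, 70.4 and 73.2 CPM in treated libraries (log2 fold change 0.08 ± 0.036 SE, edgeR adjusted p = 0.0991), and POLD3 was at 23.01, 26.2 and 26.3 CPM and 26.01, 27.01 and 27.4 CPM (log2 fold change 0.09 ± 0.058 SE, edgeR adjusted p = 0.217). The second subunit of polymerase epsilon, POLE2, was at 10.7, 10.7 and 9.60 CPM and 11.9, 10.7 and 10.5 CPM (log2 fold change 0.09 ± 0.082 SE, edgeR adjusted p = 0.373). Each of the 3 had at least 1 treated library within the untreated range.

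The sliding clamp and its loader held both directions. PCNA, the ring that keeps polymerases on DNA, was at 114, 119.6 and 112 CPM in untreated and 116, 114 and 113 CPM in treated libraries, with the treated values inside the untreated range (log2 fold change -0.01 ± 0.032 SE, edgeR adjusted p = 0.857). RFC2, a small subunit of the clamp loader, rose from 65.3, 63.2 and 63.04 CPM to 80.02, 76.5 and 76.3 CPM (log2 fold change 0.28 ± 0.033 SE, edgeR adjusted p = 4.76e-05). RFC3, another small subunit of the same loader, fell from 61.5, 54.4 and 55.9 CPM to 47.3, 46.2 and 43.1 CPM (log2 fold change -0.33 ± 0.053 SE, edgeR adjusted p = 0.000421). Both were separated between the groups. The ratio of RFC2 to RFC3 counts was 1.06, 1.16 and 1.13 in the untreated and 1.69, 1.66 and 1.77 in the treated libraries, that is 1.53 times as high on average.

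RFC4 was at 58.8, 55.9 and 54.2 CPM in untreated and 63.7, 59.2 and 60.7 CPM in treated libraries (log2 fold change 0.12 ± 0.042 SE, edgeR adjusted p = 0.0347). Its groups were 0.342 CPM apart, and the call was lost with DESeq2 (adjusted p = 0.114), with upper-quartile scaling (edgeR adjusted p = 0.092) and without untreated replicate 2 (0.0915), untreated replicate 3 (0.136), treated replicate 1 (0.113) or treated replicate 3 (0.063). RFC5, the remaining small subunit on the list, was at 22.9, 21.3 and 20.9 CPM and 22.6, 21.2 and 23.3 CPM, and the groups overlapped (log2 fold change 0.04 ± 0.057 SE, edgeR adjusted p = 0.546).

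Of the enzymes that finish Okazaki fragments, LIG1, the ligase that seals the nicks, rose from 61.97, 63.6 and 62.9 CPM in the untreated to 75.5, 68.4 and 72.4 CPM in the treated libraries, with no overlap (log2 fold change 0.20 ± 0.040 SE, edgeR adjusted p = 0.00171). FEN1, the nuclease that trims the flaps, was at 88.6, 84.1 and 80.2 CPM and 90.9, 86.6 and 88.9 CPM (log2 fold change 0.08 ± 0.039 SE, edgeR adjusted p = 0.137). Treated replicate 2 of FEN1 lay within the untreated range. Without untreated replicate 1, the highest FEN1 library of that group, the adjusted p was 0.0343.

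The 3 subunits of RPA, the trimer that coats single-stranded DNA, went different ways. RPA1, the large subunit, fell from 235, 235 and 233 CPM in the untreated to 195, 192 and 198 CPM in the treated libraries (log2 fold change -0.27 ± 0.024 SE, edgeR adjusted p = 6.93e-06). RPA2 was slightly higher, at 37.1, 35.2 and 35.7 CPM in untreated and 39.5, 38.9 and 38.7 CPM in treated libraries (log2 fold change 0.12 ± 0.038 SE, edgeR adjusted p = 0.0252). RPA3, the smallest subunit, was at 77.2, 73.3 and 76.7 CPM and 72.7, 72.4 and 70.4 CPM and did not pass the test, although its treated libraries all lay below the untreated ones (log2 fold change -0.08 ± 0.033 SE, edgeR adjusted p = 0.0753). The ratio of RPA2 to RPA1 counts was 0.158, 0.150 and 0.153 in the untreated and 0.203, 0.203 and 0.195 in the treated libraries. The RPA2 call was lost with DESeq2 (adjusted p = 0.204), with upper-quartile scaling (edgeR adjusted p = 0.0739) and without untreated replicate 2 (0.0876), untreated replicate 3 (0.0746), treated replicate 1 (0.0651) or treated replicate 2 (0.0549). RPA3 was called lower with upper-quartile scaling (edgeR adjusted p = 0.0206) and without untreated replicate 2 (0.0418).

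Of the 4 genes of deoxynucleotide supply, 2 were called higher, TK1 and RRM2, beside 26.2% of all genes tested. TK1, the thymidine kinase of the salvage route, rose from 184, 192 and 186 CPM in the untreated to 241, 248 and 247 CPM in the treated libraries (log2 fold change 0.39 ± 0.026 SE, edgeR adjusted p = 7.7e-07). RRM2, the small subunit of ribonucleotide reductase, which makes deoxynucleotides from ribonucleotides, rose from 194, 183 and 178 CPM to 252, 235 and 232 CPM (log2 fold change 0.37 ± 0.040 SE, edgeR adjusted p = 2.26e-05). The lowest treated library lay above the highest untreated one by 49.3 CPM for TK1 and 37.9 CPM for RRM2.

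The other two genes of this group, RRM1 and TYMS, were not called. RRM1, the large subunit of ribonucleotide reductase, was at 143, 151 and 145 CPM in untreated and 141, 141 and 143 CPM in treated libraries (log2 fold change -0.05 ± 0.028 SE, edgeR adjusted p = 0.168). TYMS, the thymidylate synthase of the de novo route, was at 386, 381 and 374 CPM and 369.6, 376 and 370.3 CPM (log2 fold change -0.03 ± 0.023 SE, edgeR adjusted p = 0.27). The treated RRM1 libraries lay just below the untreated ones, and the TYMS groups overlapped. Upper-quartile scaling called both lower, with edgeR adjusted p of 0.0402 for RRM1 and 0.0434 for TYMS. The ratio of RRM2 to RRM1 counts was 1.35, 1.21 and 1.23 in the untreated and 1.79, 1.67 and 1.63 in the treated libraries, and that of TK1 to TYMS was 0.476, 0.504 and 0.497 and 0.653, 0.659 and 0.666. Both ratios were higher in every treated library, each 1.34 times as high on average as in untreated cells.

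Among the genes that rebuild chromatin behind the fork, UHRF1, which brings DNA methylation to the new strand, fell from 67.02, 66.7 and 67.5 CPM in the untreated to 57.6, 55.2 and 54.2 CPM in the treated libraries (log2 fold change -0.27 ± 0.034 SE, edgeR adjusted p = 7.52e-05). CHAF1A and CHAF1B, subunits of the chromatin assembly factor CAF-1, were not lower. CHAF1A was at 45.2, 46.3 and 42.4 CPM and 49.2, 46.8 and 51.7 CPM (log2 fold change 0.14 ± 0.048 SE, edgeR adjusted p = 0.0285), and CHAF1B was at 29.3, 27.3 and 28.002 CPM and 29.7, 27.99 and 27.2 CPM, with overlapping groups (log2 fold change 0.01 ± 0.049 SE, edgeR adjusted p = 0.934). The CHAF1A groups were 0.549 CPM apart. Its call was lost with DESeq2 (adjusted p = 0.0895), with upper-quartile scaling (edgeR adjusted p = 0.0657) and without untreated replicate 1 (0.0519), untreated replicate 3 (0.118), treated replicate 1 (0.055) or treated replicate 3 (0.108).

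Of the 4 E2F genes, 1 was higher, and none was called lower by edgeR, DESeq2 or limma-voom, beside 25.4% of all genes lower by edgeR. None was lower at an unadjusted p of 0.05 either (0 of 4), where no share over all genes was counted. E2F7, a repressor that is itself switched on by E2F activity, rose from 16.9, 15.1 and 15.2 CPM in the untreated to 18.6, 18.2 and 19.1 CPM in the treated libraries (log2 fold change 0.25 ± 0.061 SE, edgeR adjusted p = 0.00612). E2F8, its closest relative, was at 19.6, 21.4 and 21.5 CPM and 23.7, 21.2 and 21.3 CPM, with overlapping groups (log2 fold change 0.08 ± 0.062 SE, edgeR adjusted p = 0.295). The activator E2F1 was at 81.6, 78.98 and 78.8 CPM and 84.998, 82.3 and 82.3 CPM (log2 fold change 0.06 ± 0.031 SE, edgeR adjusted p = 0.126). All 3 treated libraries of E2F1 lay above the untreated ones, by a margin of 0.686 CPM. E2F2, another activator, was at 10.1, 9.03 and 9.37 CPM and 11.6, 10.6 and 9.60 CPM, with overlapping groups (log2 fold change 0.16 ± 0.089 SE, edgeR adjusted p = 0.164). A row without a gene name held the same values as E2F2 in every library, and with the counts of both rows summed E2F2 was again not called (log2 fold change 0.16, edgeR adjusted p = 0.104).

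To set levels of different genes beside each other, CPM was divided by the length of the GENCODE canonical transcript in kb. On this scale TYMS was the most abundant member in untreated cells, at 236, followed by MCM7 at 136, TK1 at 131 and PCNA at 90.1 CPM per kb. In treated cells TK1, at 171 CPM per kb, stood above MCM7, at 134 CPM per kb. CDT1, at 29.2 CPM per kb, was slightly below GMNN, at 31.4, in untreated cells and above it in treated cells, at 46.3 beside 28.8 CPM per kb. At the low end, E2F2 at 1.83, GINS1 at 2.24 and E2F7 at 2.74 CPM per kb were the least abundant members in untreated cells. The E2F2 value counts its own row only, at 223, 188 and 207 counts in the untreated libraries. Summed with the unnamed row of identical values it held 446, 376 and 414 counts. Its value and its place in this order thus depend on whether both rows are counted.

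Other genes of the same pathways were examined from lists of named genes. Over all genes tested, edgeR called 26.2% higher and 25.4% lower, the shares beside which the counts of these lists stand. Of 9 genes that control CDT1 and licensing through proteolysis, 3 were higher, 4 lower and 2 did not pass. CUL4B, a scaffold of the ubiquitin ligase that marks CDT1 during S phase, fell from 238, 252 and 246 CPM in the untreated to 135, 133 and 133 CPM in the treated libraries (log2 fold change -0.88 ± 0.028 SE, edgeR adjusted p = 4.78e-09). SKP2, the substrate-binding subunit of another ligase for CDT1, which was picked out after its values were seen, fell from 85.2, 83.9 and 83.7 CPM to 52.5, 50.8 and 49.3 CPM (log2 fold change -0.73 ± 0.033 SE, edgeR adjusted p = 4.7e-08). Both were lower in every treated library than in any untreated one. The opposite direction was taken by FBXO31, an F-box protein that also targets CDT1 (log2 fold change 0.42), and by DDB1, the adaptor of the CUL4 ligases (log2 fold change 0.20). The count of CDT1 per count of SKP2 was 0.894, 0.939 and 0.942 in the untreated and 2.30, 2.45 and 2.52 in the treated libraries, and per count of CUL4B it was 0.320, 0.313 and 0.320 and 0.895, 0.938 and 0.932. SKP2 and CUL4B were chosen for these ratios as genes that fell, so the rise of the ratios follows from that choice. No ratio was made with FBXO31 or DDB1, which rose.

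Of 15 other licensing and firing factors, 4 were higher and 6 lower, among them RECQL4, a firing factor (log2 fold change 0.35), and CDC7, the kinase that fires origins (log2 fold change -0.40). Of 19 other fork components, 4 were higher and 8 lower, from POLE3, an accessory subunit of polymerase epsilon (log2 fold change 0.51), to TOP2A, the topoisomerase that untangles replicated DNA (log2 fold change -0.38). Of 10 genes of the replication stress checkpoint, 3 were higher and 1 lower. CHEK1, the effector kinase, rose from 72.2, 70.9 and 71.1 CPM in the untreated to 88.3, 87.04 and 91.96 CPM in the treated libraries (log2 fold change 0.32 ± 0.032 SE, edgeR adjusted p = 1.37e-05), and ATR, the kinase that acts before it, fell from 56.7, 54.7 and 49.5 CPM to 42.2, 39.1 and 44.6 CPM (log2 fold change -0.35 ± 0.060 SE, edgeR adjusted p = 0.000622).

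Among other genes of nucleotide supply, more were called lower than higher. Of 18 genes of de novo purine and pyrimidine synthesis, 2 were higher (IMPDH1 and CAD), 10 were lower and 6 did not pass, with a median log2 fold change of -0.12. The higher calls were lost with DESeq2 (0 higher, 7 lower) and with upper-quartile scaling (0 higher, 12 lower). They were also lost without untreated replicate 2 (0 higher, 10 lower) and without treated replicate 2 (0 higher, 8 lower). ATIC, which completes the purine ring, fell from 67.5, 68.2 and 65.3 CPM to 50.6, 48.7 and 47.3 CPM (log2 fold change -0.46 ± 0.037 SE, edgeR adjusted p = 2.96e-06). Of 14 other genes of deoxynucleotide metabolism, 3 were higher and 6 lower. SAMHD1, which breaks down deoxynucleoside triphosphates, fell from 64.99, 65.9 and 63.96 CPM to 45.6, 45.97 and 46.1 CPM (log2 fold change -0.50 ± 0.032 SE, edgeR adjusted p = 4.69e-07), and TYMP, which splits thymidine, rose from 34.4, 36.6 and 34.5 CPM to 53.5, 59.5 and 54.9 CPM (log2 fold change 0.67 ± 0.049 SE, edgeR adjusted p = 1.34e-06).

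Of 9 other factors of replicated chromatin, none was higher by edgeR, DESeq2 or limma-voom, beside 26.2% of all genes by edgeR. None was higher at an unadjusted p of 0.05 either (0 of 9), where no share over all genes was counted. By edgeR 6 of the 9 were lower, beside 25.4% of all genes, with a median of -0.23. NASP, a histone chaperone, had the lowest log2 fold change among them, -0.36. Of 14 other genes of the E2F and RB pathway, 3 were higher and 4 lower, with RBL1, an RB-related repressor, at 0.20 and TFDP2, a partner of E2F proteins, at -0.50 on the log2 scale. Of 21 mitotic genes, 2 were higher (MYBL2 and AURKB), 14 were lower and 5 did not pass, with a median log2 fold change of -0.16. With DESeq2, 1 of these 21 genes was higher and 14 were lower. KIF20A, a kinesin of late mitosis, had the lowest among them, -0.55.

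Of the lists examined, the G1 regulators had the widest range of change. Of 12 genes that encode G1 cyclins, the kinases CDK4 and CDK6 or CDK inhibitors, 4 were higher and 5 lower. CDKN1A, the CDK inhibitor p21, rose from 36.6, 39.8 and 41.5 CPM in the untreated to 105, 114 and 109 CPM in the treated libraries (log2 fold change 1.47 ± 0.049 SE, edgeR adjusted p = 5.27e-09), and CCND2, a D-type cyclin near the detection limit, fell from 0.614, 1.01 and 1.41 CPM to 0.263, 0.275 and 0.234 CPM (log2 fold change -1.97 ± 0.39 SE, edgeR adjusted p = 0.00158). These shifts were larger than that of any replication gene. The differences between these lists and the replication genes were not tested.

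**Figure D5:**
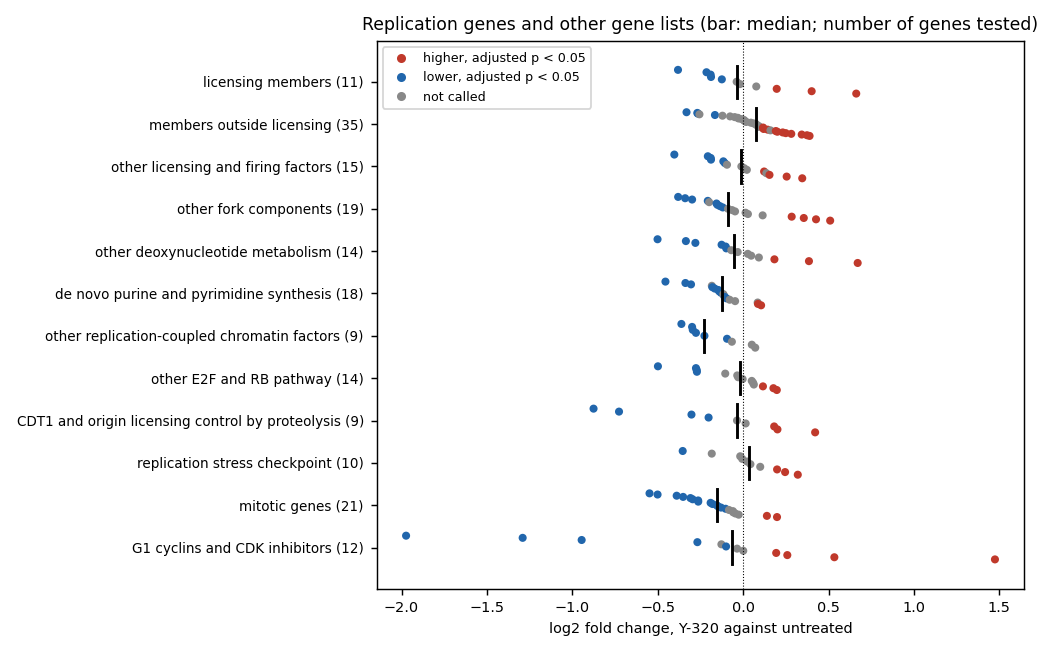
Log2 fold change of each gene, in Y-320-treated against untreated cells, for the replication genes split into licensing and other members and for 10 further gene lists, coloured by call at an adjusted p of 0.05, with the median of each list as a bar and the number of genes tested in parentheses. The replication genes outside licensing have a median of 0.08, the mitotic genes of -0.16 and the other chromatin factors of -0.23, and the G1 regulators run from -1.97 (CCND2) to 1.47 (CDKN1A).

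Some members share sequence with other genes, and the counting could then split or add reads. The strand setting of the counting is not given in the sources used here. For each member, the share of 31-base words of its transcripts that also occur in another gene, on either strand, was counted. It was 44.2% for TYMS, which overlaps the antisense gene ENOSF1, 30.6% for GINS4, 27.3% for UHRF1, 25.7% for POLA2, 24.1% for PRIM1, 21.3% for MCM2 and 20.2% for PRIM2. On the same strand alone it was 2.09% for TYMS, 8.25% for GINS4, 26.98% for UHRF1, 20.7% for POLA2, 20.996% for PRIM1, 0 for MCM2 and 19.7% for PRIM2. The values of UHRF1, POLA2, PRIM1 and PRIM2 are thus uncertain under either strand setting, and those of TYMS, GINS4 and MCM2 mainly if the counting did not use strand. The next highest shares on either strand were 16.2% for CHAF1B, 16.0% for ORC6 and 13.9% for GINS3. On the same strand alone these genes stood at 14.9%, 14.1% and 3.25%. The calls of ORC6 and GINS3, whose changes were small, thus carry a part of this uncertainty. On either strand the share was 5.47% for CDT1 and 0 for MCM6, GMNN, TK1 and E2F7.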

How the data were processed

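RNA-seq was carried out on 6 libraries of HDQ-P1 cells, 3 untreated and 3 exposed to 1 µM Y-320 for 48 h. The authors deposited estimated counts for each Ensembl gene that had not been normalized. The submitters' processing notes name kallisto 0.46.1, a tool that divides reads matching several transcripts among them, and the GRCh38 build. The Ensembl release and the strand setting are not given in the sources used here. Of the values, 40.1% were not whole numbers. The counts were rounded to whole numbers, and 35390 of 40295 rows matched a gene name. Rows without a gene name held 3.21% to 3.47% of the counts.

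edgeR 4.0.16 in R 4.3.3 kept genes by filterByExpr (minimum count 10, total 15), scaled libraries by TMM and fitted the quasi-likelihood model to treated against untreated libraries without a block, with Benjamini-Hochberg adjustment over all 16580 genes tested and a threshold of 0.05. The standard error was derived from the F statistic. DESeq2 1.42.0, limma 3.58.1 (voom), other scalings and filters, stricter thresholds, a replicate block and leaving out each library were the alternatives. Depth was 21045401 to 22740535 counts per library, which sets the counting precision. CPM per kb used GENCODE 44 canonical transcripts, and promoter sequences came from RefSeq (GRCh38.p14). Shared sequence was counted in words of 31 bases.

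The members and all gene lists were chosen with earlier results of these data known. Every member may be named. Full statistics were planned for CDT1, for members not called and for the highest and the lowest of each role, and from each pathway list at most 4 genes were to be named: the highest and the lowest called, and up to 2 called against the list's median. SKP2 was named outside this rule, after its values were seen, and cell type markers were named without a rule. Tables and plots were made in Python 3.11.15 with numpy 2.4.6, pandas 2.3.3 and matplotlib 3.10.9. The study's combined pipelines were not repeated, and its protein, qPCR and readthrough measurements were not analysed here.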

Additional observations from a re-analysis of the deposited data

How the results depend on the processing

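CDT1, ORC1, CDC45, GINS3, POLA1, RFC2, LIG1, RRM2, TK1, E2F7 and ORC6 among the 15 higher members, and MCM2, MCM3, MCM4, MCM6, RFC3, RPA1 and UHRF1 among the 9 lower ones, kept their call in all 14 refits with another tool, scaling, filter, block or a library left out, and 15 of the 22 members not called stayed so. No called member changed sign in any of them. Leaving out 1 library at a time gave 12 to 16 members higher and 7 to 10 lower, with a median log2 fold change of 0.02 to 0.08, and 3917 to 4047 genes higher and 3748 to 3925 lower over all genes. Without replicate 1 of both groups, an alternative chosen after seeing the data, 13 members were higher and 8 lower, and 3953 and 3776 genes over all genes. Upper-quartile scaling called 12 members higher and 14 lower, and over all genes 3917 higher (23.6% of those tested) and 4746 lower (28.6%). DESeq2 called 11 members higher and 8 lower, and over all genes 3405 (20.5%) and 3278 (19.8%). limma-voom called 15 members higher and 10 lower, and over all genes 4347 (26.2%) and 4211 (25.4%).

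Requiring also a log2 fold change of at least 0.5 left 1400 genes higher and 1207 lower, and among the members 1 higher, CDT1, and 0 lower by edgeR, as by DESeq2, by limma-voom and at an unadjusted p of 0.05. The size of the changes thus sets that count. At an adjusted p of 0.01, 11 members were higher and 7 lower, and over all genes 3374 (20.3%) and 3166 (19.1%).

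With the replicate number as a block, 4285 genes were higher and 4159 lower, and 15 members were higher and 10 lower, the added one being PRIM2, with a median log2 fold change of 0.05. Deviations of same-numbered libraries correlated at -0.0138, 0.0111 and -0.00036 over genes, so over all genes tested the numbers share no visible pairing. Among the members, replicate 1 was most often the highest in both groups, as given below.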

Other observations

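Replicate 1 held the highest of the 3 levels for 28 of the 46 members in untreated cells and for 33 of the 46 in treated cells, while over all genes tested replicate 1 was the highest for 34.9% and 35.6%. Replicate 3 held the lowest level for 22 members in each group, a count for which no share over all genes was made. The libraries of a group have no order, the members share these libraries, and no cause was tested.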
